A study of Mus musculus with 62 samples.

Results

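Lipid-associated macrophages are the macrophages that gather around dying adipocytes in obese fat, and 10 genes used to recognise and place them were followed across the tissues of *Fam13a* knockout (KO) and wild-type (WT) mice. The genes were chosen by name, as *Trem2*, *Gpnmb*, *Itgax*, *Cd9*, *Spp1*, *Cd68*, *Adgre1*, *Atp6v0d2*, *Lgals3* and *Cd163*, and all 10 were found among the 48795 genes of the count table by their Ensembl identifiers. In fat, macrophages take up lipid released by adipocytes and break it down in lysosomes, which the vacuolar proton pump acidifies. The receptor TREM2 senses lipid at the cell surface and signals through the adaptor TYROBP, and cells with this programme carry CD9, CD11c, GPNMB, galectin-3 and osteopontin. *Cd68* and *Adgre1* mark macrophages in general, and *Cd163* marks tissue-resident macrophages that clear haemoglobin, so that it stands beside the other 9 genes as a marker of a different state.

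RNA was sequenced in 62 libraries from mice on a *C57BL6* background. The KO mice lacked *Fam13a* in the whole body, made from an allele in which exon 5 is flanked by LoxP sites. Visceral fat (VAT) was the gonadal depot and subcutaneous fat (SAT) the inguinal depot. Males of both genotypes on chow and on a high-fat diet (HFD) gave VAT, SAT and liver, and females of both genotypes on HFD gave VAT and SAT. Most groups held 4 libraries, and WT females had 3 per depot, which makes 16 groups. HFD was fed from 8 weeks of age for 14 weeks, until the mice were killed at 22 weeks. The age of the chow-fed mice whose RNA was sequenced is not given in the sources used here, and age and diet cannot be told apart. No sequencing lane held both diets of a tissue, or both sexes of a depot on HFD, so lane cannot be told apart from diet or from sex. The labels do not link the tissues of 1 mouse.

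Between 4959783 and 28723319 counts were made per library, with a median of 21694089. A ribosomal RNA gene took 0.0127% to 75.4% of them, so a library was left with as few as 1219431 other counts. Counts were normalised by edgeR's TMM method and are given as CPM, a count scaled to the size of its library, groups were compared by its quasi-likelihood test, and "called" means a Benjamini-Hochberg false discovery rate (FDR) under 10% over all genes tested. The labels do not say that libraries of a group came from separate mice, so p-values measure the spread between these libraries. *Fam13a* itself had a lower median in KO than in WT in each of the 8 pairs of groups. The genotypes stood apart in 3 pairs, male SAT on chow (82.5 to 182 CPM in KO, 220 to 281 in WT), male SAT on HFD (26 to 44.8 and 55.2 to 70.5) and liver on HFD (16.3 to 33.1 and 37.2 to 47.5), and their ranges overlapped in the other 5. A gene count does not check the loss of 1 exon. In fat, a gene's CPM moves both with the number of cells that express it and with the RNA per cell, which bulk libraries cannot tell apart.

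The 250 bases upstream of a transcription start were available in RefSeq (GRCm38.p6) for 8 of the 10 genes, as 9 windows. *Trem2*, *Itgax* and *Cd68* are shown because their windows hold the letters TGANTCA, searched for AP-1 with any base at N. The match reads TGAATCA in *Trem2* and TGAGTCA in *Itgax* and *Cd68*. *Cd163* is shown because it moved against the others, and its window holds none of the 4 motifs searched. The windows of *Gpnmb*, *Cd9* and *Lgals3*, which rose on HFD in VAT, hold none of these motifs either. The motifs therefore do not set *Cd163* apart from the genes that rose. Capitals mark motif letters, read 5′ to 3′ on the gene's strand.

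Trem2, chr17:48346151-48346400, plus strand: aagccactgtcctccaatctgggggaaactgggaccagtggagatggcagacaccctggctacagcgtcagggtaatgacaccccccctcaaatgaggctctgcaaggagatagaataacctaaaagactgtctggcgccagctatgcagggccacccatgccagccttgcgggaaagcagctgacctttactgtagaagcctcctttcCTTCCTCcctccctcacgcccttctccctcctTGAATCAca

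Itgax, chr7:128129300-128129549, plus strand: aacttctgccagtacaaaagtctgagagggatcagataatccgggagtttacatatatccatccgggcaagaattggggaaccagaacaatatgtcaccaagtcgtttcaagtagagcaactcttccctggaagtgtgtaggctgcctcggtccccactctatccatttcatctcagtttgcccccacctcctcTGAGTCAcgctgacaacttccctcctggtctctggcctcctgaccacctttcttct

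Cd68, chr11:69666171-69666420, minus strand: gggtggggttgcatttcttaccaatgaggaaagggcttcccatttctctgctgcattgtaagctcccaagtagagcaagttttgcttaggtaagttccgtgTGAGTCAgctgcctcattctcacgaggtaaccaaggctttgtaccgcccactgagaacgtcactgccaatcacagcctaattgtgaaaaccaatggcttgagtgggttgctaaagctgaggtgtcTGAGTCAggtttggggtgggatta

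Cd163, chr6:124304401-124304650, plus strand: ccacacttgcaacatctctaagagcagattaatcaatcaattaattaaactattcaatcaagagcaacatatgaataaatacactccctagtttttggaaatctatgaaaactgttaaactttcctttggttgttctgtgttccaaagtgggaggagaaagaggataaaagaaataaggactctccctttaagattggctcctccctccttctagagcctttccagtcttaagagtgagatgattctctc

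TGANTCA occurred once in the windows of *Trem2* and *Itgax* and 2 times in that of *Cd68*, against 6.75% of all 32851 RefSeq windows with at least 1 match. The PU.1 core letters GAGGAAG, on either strand, were found in *Trem2* and in 1 of the *Spp1* windows (10.6% of all windows). The E-box letters CACGTG (6.02%) and the M-box letters TCATGTG (3.25%) matched no window of the 8 genes. These matches describe the sequence only.

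On HFD, 9 of the 10 genes rose in VAT of males and *Cd163* fell. All 10 were called, where 44.2% of the 17330 genes tested were called. The median log2 fold change of the 10 genes was 3.03, and that of all genes tested was -0.04. In 7 of the 10 genes the 8 HFD libraries did not overlap the 8 chow libraries in CPM, which was so for 8.17% of all genes tested.

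*Trem2* (ENSMUSG00000023992, chr17:48346401-48354147, plus strand, GRCm38, as for every gene position here) encodes the lipid-sensing receptor. In VAT of males on chow, its CPM in the 4 WT libraries were 3.07, 2.63, 11.3 and 15.9, and in the 4 KO libraries 6.09, 20.8, 3.21 and 3.29. On HFD they were 51.8, 130, 217 and 74.0 in WT and 108, 146, 144 and 116 in KO. Every HFD library lay above every chow library, the lowest of them being the WT library of replicate 1, which was sequenced on another flow cell and had 40.1% ribosomal RNA. *Trem2* rose by a log2 fold change of 3.87 (SE 0.50), or 14.6-fold (edgeR, adjusted p = 4.33e-05).

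*Gpnmb* (ENSMUSG00000029816, chr6:49036546-49070929, plus strand) encodes a membrane glycoprotein of lysosomes and the cell surface. In VAT it ranged from 13 to 142 CPM on chow with a median of 34.6, and from 366 to 2097 on HFD with a median of 936.8. Its rise of 4.09 (SE 0.57, edgeR adjusted p = 8.18e-05) on the log2 scale, 17.0-fold, was exceeded by 0.121% of the genes tested.

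*Itgax* (ENSMUSG00000030789, chr7:128129547-128150657, plus strand) encodes CD11c, the integrin alpha chain found on macrophages of obese fat and on dendritic cells. It lay between 6.55 and 36.4 CPM on chow (median 8.48) and between 73.8 and 331 on HFD (median 195). No library of one diet lay within the range of the other, and the log2 fold change was 3.99 (SE 0.40, edgeR adjusted p = 1.15e-05). Dendritic cell genes were measured beside it, and 3 of 7 rose and 1 fell in VAT (median 0.50). Their summed level had a lower median on HFD, at 26.2 CPM (22 to 46) against 40.3 (29.4 to 41.7) on chow. Their part in the *Itgax* result was not tested.

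*Cd9* (ENSMUSG00000030342, chr6:125460266-125494791, minus strand), a tetraspanin of the cell surface, rose by 1.65 on the log2 scale (SE 0.35, edgeR adjusted p = 0.00185). Its CPM ranged from 7.79 to 43.5 on chow and from 30.2 to 107 on HFD. The diets overlapped through the chow WT library of replicate 2, at 43.5 CPM, 1 of a pair of chow libraries with high levels of epididymis genes (10250 CPM summed over 10 genes in KO replicate 1 and 7304 in WT replicate 2, against 1.99 to 74.8 in the other 6). Without that pair, the log2 fold change of *Cd9* was 1.94 (edgeR adjusted p = 0.000687), and all 10 genes were called. *Cd9* overlaps Gm26728 and Gm28809 on the opposite strand, and which strand was counted is not given in the sources used here.

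*Adgre1* (ENSMUSG00000004730, chr17:57358691-57483527, plus strand) encodes F4/80, and *Cd68* (ENSMUSG00000018774, chr11:69664213-69666153, minus strand) encodes macrosialin of the lysosomal membrane. *Adgre1* went from 27.2 to 81.4 CPM on chow to 134 to 486 on HFD, with medians of 36.7 and 347.5. *Cd68* went from 14.3 to 56.4 CPM on chow to 78.6 to 350 on HFD, with medians of 22.8 and 210.4. Neither gene's ranges overlapped, and the log2 fold changes were 2.95 (SE 0.29, edgeR adjusted p = 1.1e-05) for *Adgre1* and 2.75 (SE 0.36, edgeR adjusted p = 4.82e-05) for *Cd68*.

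*Atp6v0d2* (ENSMUSG00000028238, chr4:19876841-19922605, minus strand) encodes the d2 subunit of the vacuolar proton pump, a subunit known from osteoclasts and macrophages. Its CPM on chow ranged from 2.98 to 36.8 (median 14.3) and on HFD from 63.5 to 396 (median 217). It rose by 3.69 on the log2 scale (SE 0.57, edgeR adjusted p = 0.000179), 12.9-fold, while its widely expressed counterpart *Atp6v0d1* rose by 0.31 (SE 0.10).

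*Lgals3* (ENSMUSG00000050335, chr14:47367751-47386160, plus strand) encodes galectin-3, a lectin that binds galactosides, and *Spp1* (ENSMUSG00000029304, chr5:104435118-104441050, plus strand) encodes the secreted protein osteopontin. *Lgals3* rose from a median of 60.6 CPM (28.7 to 183) to 677.5 (321 to 1245), with a log2 fold change of 3.12 (SE 0.44, edgeR adjusted p = 8.23e-05). *Spp1* was at 0.0345, 2.69, 4.01 and 20.5 CPM in the 4 chow WT libraries, 6.78, 3.46, 0.385 and 0.229 in the chow KO libraries, 4.96, 33.5, 53.8 and 17.9 on HFD in WT, and 34.5, 54.2, 34.5 and 37.5 on HFD in KO. Its diets overlapped and its error was the largest of the 10 genes (log2 fold change 2.88, SE 0.86, edgeR adjusted p = 0.0159). In WT libraries alone *Spp1* was not called. *Spp1* overlaps Gm42793 on the same strand, so reads in the overlap may have been left out of its count.

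*Cd163* (ENSMUSG00000008845, chr6:124304656-124330527, plus strand), the haemoglobin scavenger receptor, moved the other way. It ranged from 27.2 to 95.4 CPM on chow (median 55.1) and from 20.9 to 47.6 on HFD (median 29.5), with overlap. It fell by 0.96 on the log2 scale (SE 0.27, edgeR adjusted p = 0.0124).

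Per length, *Lgals3* was the most abundant of the 10 transcripts in VAT of males on HFD, with a median of 1122 TPM, which scales counts by gene length and library (341.8 to 2667 over 8 libraries). *Cd68* (530 TPM), *Gpnmb* (471), *Adgre1* (335) and *Atp6v0d2* (252) followed, then *Itgax* (132), *Cd9* (106), *Trem2* (75.8), *Spp1* (68.5) and *Cd163* (16.8). The ranges of neighbours in this order overlapped.

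**Figure D1:**
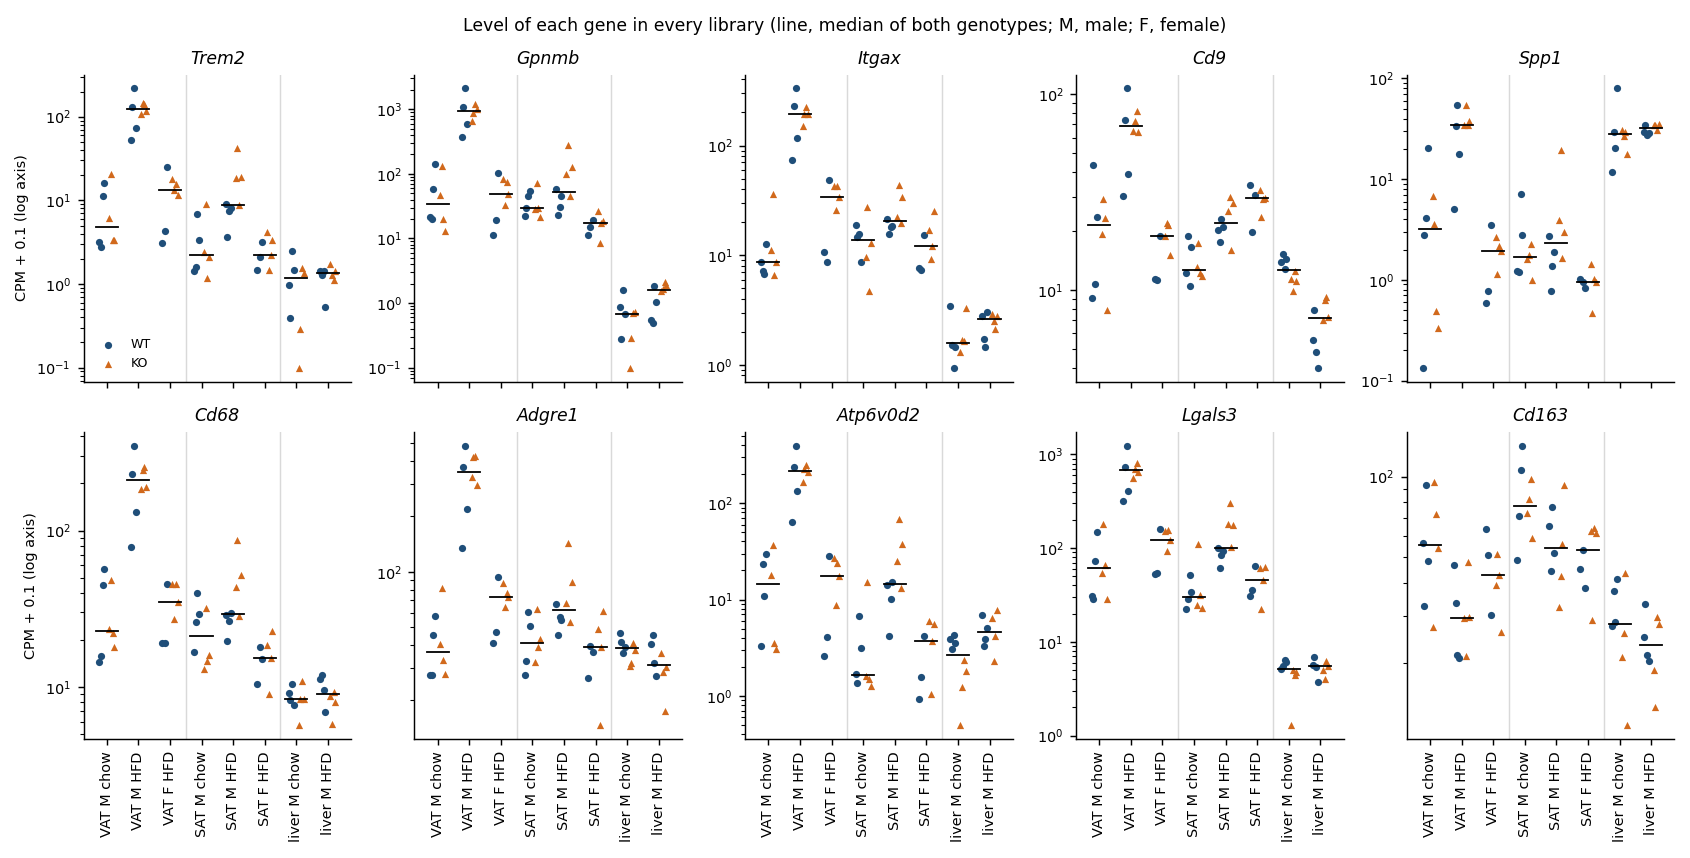
CPM of each of the 10 genes in every library, with 0.1 added, on log axes that differ between panels. Circles are WT and triangles KO, and a line marks the median of both genotypes. VAT of males on HFD stands above every other column for the genes from *Trem2* to *Lgals3* by its median, while the median of *Cd163* is lowest there among the fat columns.

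In SAT of males, HFD raised 8 genes and lowered *Cd163*, by smaller amounts than in VAT. With 58.0% of the 17292 genes tested called in this comparison, 9 calls among 10 genes stand against a high background. The median log2 fold change was 0.70 for the 10 genes and -0.02 for all genes. No gene separated the diets without overlap, which 4.78% of all genes did.

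*Atp6v0d2* rose most in SAT. It was at 1.18 to 15.2 CPM on chow (median 1.55) and 4.04 to 68.7 on HFD (median 14.5), a log2 fold change of 2.29 (SE 0.59, edgeR adjusted p = 0.00589). *Trem2* had CPM of 1.31, 1.51, 6.72 and 3.27 in chow WT, 2.30, 8.83, 1.09 and 1.99 in chow KO, 8.95, 3.50, 7.26 and 8.07 in HFD WT, and 18.2, 42.7, 8.59 and 18.9 in HFD KO. In 3 of the 4 KO libraries on HFD the level was above every other SAT library of males, and replicate 2, at 42.7, was the highest of all SAT libraries. *Trem2* rose by 1.84 (SE 0.51, edgeR adjusted p = 0.00839).

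*Lgals3* rose by 1.65 on the log2 scale in SAT (SE 0.34, edgeR adjusted p = 0.0013), from a median of 30.1 to 101.5 CPM. *Gpnmb* (0.95), *Itgax* (0.72), *Cd68* (0.68), *Adgre1* (0.67) and *Cd9* (0.67) rose by less than 1 log2 unit. In 8 of the 16 fits that left out 1 library *Gpnmb* was not called, and in 7 *Cd68* was not. *Spp1* was not called, with CPM of 0.891 to 7.11 on chow and 0.674 to 19.4 on HFD (log2 fold change 0.59, SE 0.71, edgeR adjusted p = 0.504). *Cd163* fell by 0.55 (SE 0.22, edgeR adjusted p = 0.0514), from a median of 77.6 to 53.8 CPM.

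The SAT effect was also fitted in each genotype alone. In the 8 KO libraries 7 of the 10 genes were called, where 16.2% of all genes were, and in the 8 WT libraries 4 were, where 58.8% of all genes were. The log2 fold change of *Cd68* was 1.45 in KO and -0.14 in WT, that of *Gpnmb* 1.84 and 0.01, and that of *Spp1* 2.13 and -1.02, none of the WT values being called. *Lgals3* (2.0 and 1.26), *Atp6v0d2* (2.84 and 1.65) and *Cd9* (0.83 and 0.46) were called in both genotypes. The test of the difference between the genotypes called none of the 10 genes and is given with the KO effect on each diet.

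Lymphocyte genes fell with HFD in SAT, all 10 of 10 measured (median log2 fold change -3.50). Their summed level ranged from 8.0 to 813 CPM on chow and from 8.44 to 285 on HFD, with no gene at 0 in either group, and all 4 chow WT libraries were over 200 CPM. With the lymphocyte score as a covariate, 5 of the 10 genes were called in SAT (26.2% of all genes), and 7 were called without the SAT libraries over 200 CPM (24.8% of all genes). Dendritic cell genes fell too, 6 of 7 (median -1.33), where 29.6% of all genes were called lower.

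**Figure D2:**
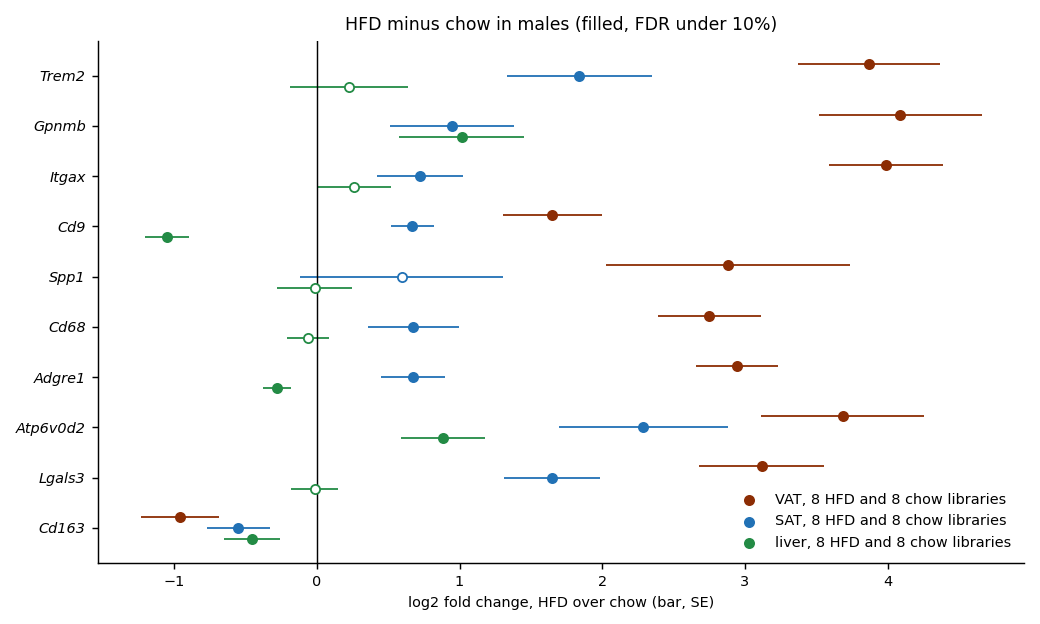
Log2 fold change of HFD over chow in males for each gene, with the SE as a bar, in VAT, SAT and liver (8 libraries on each diet). Filled points have an FDR under 10%. VAT values lie to the right of SAT values for every gene except *Cd163*, and liver values lie between -1.05 and 1.01.

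In liver, 5 of the 10 genes were called against 40.8% of the 14476 genes tested, 2 of them higher and 3 lower, with a median of -0.015 (-0.0038 for all genes). *Cd9* fell by 1.05 (SE 0.15, edgeR adjusted p = 3.49e-05), and it was the only one of the 10 genes whose diets did not overlap (9.84 to 15.2 CPM on chow, 3.92 to 9.16 on HFD), as 4.82% of all genes did. *Cd163* (-0.45, SE 0.20) and *Adgre1* (-0.28, SE 0.10) fell as well. *Atp6v0d2* rose by 0.88 (SE 0.29, edgeR adjusted p = 0.025), between 0.403 and 7.77 CPM.

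*Gpnmb* rose by 1.01 in liver (SE 0.44, edgeR adjusted p = 0.0837) on 0 to 30 counts per library. *Trem2* stood on 0 to 26 counts and was not called (0.23, SE 0.41). *Spp1* was at 11.7 to 79.4 CPM in liver on chow and 27.2 to 35.3 on HFD, with no difference called (-0.01, SE 0.26). Kupffer cell genes, which mark the macrophages of the liver, were all 5 present, at 274 to 401 CPM summed on chow and 159 to 436 on HFD, and 3 of 5 fell. Of the 15 pan-macrophage genes tested, 5 fell and none rose, where 20.2% of all genes were called lower and 20.6% higher. Their part in the liver values was not tested.

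The difference between the HFD effects of 2 tissues was tested directly. The effect was larger in VAT than in SAT for 7 of the 10 genes (35.1% of all genes tested were called). *Itgax* differed most, by 3.28 on the log2 scale (SE 0.49, edgeR adjusted p = 4.05e-05), followed by *Gpnmb* (2.98), *Adgre1* (2.28), *Cd68* (2.04), *Trem2* (1.96), *Lgals3* (1.46) and *Cd9* (0.99). *Spp1* (1.96, SE 1.05), *Atp6v0d2* (1.30, SE 0.82) and *Cd163* (-0.39, SE 0.36) were not called. In KO libraries alone 2 genes were called (4.9% of all genes), and without the SAT libraries over 200 CPM of lymphocyte genes 3 genes were (6.99% of all genes).

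Against liver, the HFD effect was larger in VAT for 9 genes, all but *Cd163* (32.5% of all genes called), with differences between 2.65 for *Cd9* and 3.70 for *Itgax*. It was larger in SAT than in liver for 4 genes (35.9% of all genes called), *Trem2* (1.63), *Lgals3* (1.64), *Cd9* (1.60) and *Adgre1* (0.89). The *Trem2* call was lost in 15 of the 32 fits that left out 1 library.

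The depots also differed within a diet. On chow, *Atp6v0d2* (2.02, SE 0.60), *Trem2* (1.26), *Lgals3* (0.94) and *Cd9* (0.59) were higher in VAT than in SAT, 4 of 10 genes where 39.7% of all genes were called. On HFD all 10 were called where 36.1% of all genes were, 9 higher in VAT by 1.58 to 3.59 on the log2 scale and *Cd163* lower by 0.87 (SE 0.26, edgeR adjusted p = 0.0129). The *Cd9* call on chow was lost in 23 of the 32 fits that left out 1 library, and without the SAT libraries over 200 CPM of lymphocyte genes 0 of the 10 genes were called on chow (5.52% of all genes).

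Macrophage genes outside the 10 were counted beside them. Of 16 pan-macrophage genes, 15 rose in VAT with HFD (median 1.90), where 21% of all genes were called higher. In SAT none was called (median -0.06), where 58.0% of all genes were. Chow SAT libraries over 200 CPM of lymphocyte genes had summed pan-macrophage levels of 936 to 1423 CPM. The other chow SAT libraries had 540.3 to 951.1. The part of lymphocyte content in the SAT values was not tested. *C1qb* and *C1qc*, of the complement C1q that macrophages make, rose by 2.15 and 1.91 in VAT with values of 0.09 and 0.05 in SAT. *Csf1r*, the receptor for macrophage colony-stimulating factor, rose by 1.58 in VAT (-0.05 in SAT), and *Laptm5*, of lysosomes in blood cells, rose by 2.02 (-0.52 in SAT). In SAT *Trem2*, *Atp6v0d2* and *Lgals3* were called while no gene of the pan-macrophage list was. *Adgre1* (0.67) and *Cd68* (0.68), which mark macrophages in general and are not in that list, were called higher there too. *Trem2*, *Atp6v0d2* and *Lgals3* stayed called with the pan-macrophage score as a covariate, as did 9 of the 10 genes in all (60.4% of all genes). The list had a median of -0.06 in SAT, so its score could take up little of a diet effect. The part of macrophage number in the SAT values was not tested.

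In VAT the list and the 10 genes moved together. The summed pan-macrophage level was 526 to 1530 CPM on chow and 1940 to 4100 on HFD. With its score as a covariate none of the 10 genes was called in VAT, and neither was any other gene tested. The score and the diet divided the VAT libraries in the same way.

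The resident macrophage list, *Cd163* not included, was mixed in VAT, with 4 of 10 rising and 1 falling (median 0.27). *Folr2*, a folate receptor, rose by 1.89, *Mrc1*, the mannose receptor, by 1.12, the lectin *Clec10a* by 1.02 and the chemokine *Pf4* by 0.71, and *Lyve1* fell by 0.79. In SAT, 1 rose and 3 fell (median 0.03), where 28.5% of all genes were called higher and 29.6% lower.

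Partners of the receptors followed the depots. The list of TREM2 and integrin partners and osteopontin receptors had 9 of 12 genes higher and 1 lower with HFD in VAT (median 0.88), and 2 higher and 6 lower in SAT (median -0.23). *Tyrobp*, the adaptor of TREM2, which is also in the pan-macrophage list, rose by 2.99 in VAT (0.31 in SAT, not called). *Itgb2*, the chain that pairs with CD11c, rose by 2.69, *Cd44*, an osteopontin receptor, by 2.58, and the kinase *Syk*, which acts after TYROBP, by 1.41. *Syk* fell by 0.85 in SAT, where lymphocyte genes fell as well (median -3.50). Their part in the SAT values of this list was not tested.

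Many lysosomal genes were called higher in both depots, where 21% of all genes tested were called higher in VAT and 28.5% in SAT. Of 17 vacuolar proton pump genes besides *Atp6v0d2*, 15 rose in VAT (median 0.66) and 13 in SAT (median 0.36), with none falling. *Atp6v1a* and *Atp6v1b2*, subunits of the catalytic sector, rose by 1.53 and 1.37 in VAT and by 0.73 and 0.36 in SAT. *Tcirg1*, the a3 subunit known from osteoclasts, rose by 2.02 in VAT (0.06 in SAT, not called), and *Atp6v0b* by 0.98. Of 25 lysosomal enzymes and membrane proteins, 21 rose in VAT (median 0.89), and 17 rose and 2 fell in SAT (median 0.52). *Hexa* and *Gusb*, which break down glycolipids and glycosaminoglycans, rose by 1.58 and 2.07 in VAT, and *Psap*, the precursor of the saposins, by 1.65.

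Of 21 other genes linked to lipid-associated macrophages, 14 rose and 3 fell in VAT (median 1.41), and 13 rose and 1 fell in SAT (median 0.57). The protease gene *Ctsk* rose by 3.60 in VAT and 0.56 in SAT, and *Lipa*, the lysosomal acid lipase, by 2.21 and 0.57. *Cstb*, a cathepsin inhibitor, and *Ctsd*, a lysosomal protease, rose by 2.12 and 1.61 in VAT and by 1.33 and 1.41 in SAT. *Pparg*, *Fabp4* and *Apoe*, which fell in VAT, are also expressed by adipocytes or other cells. The MiT factors, which drive lysosomal genes, rose in VAT, 4 of 4 (*Tfeb* 1.13, *Mitf* 1.04, *Tfec* 1.17, *Tfe3* 0.24), and in SAT 2 fell and none rose.

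Of 17 recruitment and cytokine genes tested, 11 rose in VAT and 6 rose and 2 fell in SAT. *Tnf*, an inflammatory cytokine, rose by 2.81 in VAT, *Il1rn*, the interleukin-1 receptor antagonist, by 3.87, and *Ccl2*, which attracts monocytes, by 2.18. Beside these, 8 of 10 adipocyte genes fell and 1 rose in VAT (summed level 5410 to 16400 CPM on chow and 4080 to 8180 on HFD), 3 of 4 endothelial genes fell, and of 6 fibroblast and progenitor genes 3 rose and 1 fell. Their part in the VAT values was not tested.

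**Figure D3:**
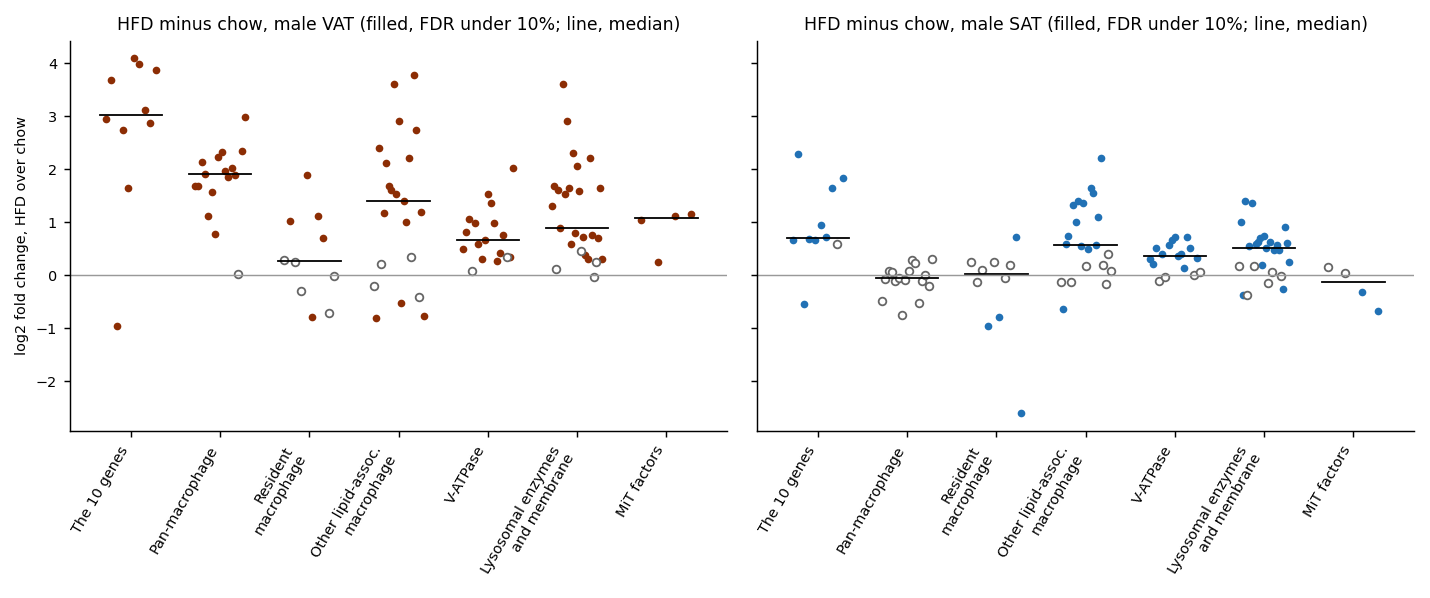
Log2 fold change of HFD over chow in males for the 10 genes and for each gene of 6 lists, in VAT and in SAT. Filled points have an FDR under 10%, open points do not, and lines are list medians. The pan-macrophage median is 1.90 in VAT and -0.06 in SAT, while the medians of the 10 genes are 3.03 and 0.70.

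Males exceeded females on HFD, where sex and sequencing lane cannot be told apart. In VAT, 9 of the 10 genes were higher in males and *Cd163* was not called, where 39.5% of the 17538 genes tested were called. The median log2 difference was 2.71 for the 10 genes (0.01 for all genes). For the same 9 genes the 8 male and 7 female libraries did not overlap, as 9.35% of all genes did not.

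*Spp1* differed most. It was at 0.488 to 3.39 CPM in females (median 1.82) and 4.96 to 54.2 in males (median 34.5), a log2 difference of 4.35 (SE 0.48, edgeR adjusted p = 2.31e-05). *Gpnmb* was at 11.1 to 104 CPM in females and 366 to 2097 in males, a difference of 4.25 (SE 0.51, edgeR adjusted p = 3.6e-05). *Trem2* had CPM of 3.01, 4.17 and 25.2 in the 3 female WT libraries and 18, 13.4, 15.7 and 11.4 in the 4 female KO libraries, so that the WT library of replicate 3 stood above the other WT females.

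Every male library was above these values, and *Trem2* was higher in males by 3.31 (SE 0.43, edgeR adjusted p = 5.21e-05). *Atp6v0d2* (3.82), *Itgax* (2.73), *Cd68* (2.69), *Lgals3* (2.65), *Adgre1* (2.33) and *Cd9* (2.05) were higher as well. *Cd163* was at 25.9 to 63.7 CPM in females and 20.9 to 47.6 in males (-0.44, SE 0.22, edgeR adjusted p = 0.15).

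In SAT on HFD, 8 genes were higher in males, *Cd9* was lower by 0.36 (SE 0.14, edgeR adjusted p = 0.0759) and *Cd163* was not called (0.17, SE 0.22). In this comparison 26.6% of the 17681 genes tested were called, and the median difference was 1.40 for the 10 genes (-0.01 for all genes). *Atp6v0d2* was at 0.839 to 5.86 CPM in females and 4.04 to 68.7 in males, a difference of 2.90 (SE 0.48, edgeR adjusted p = 0.000504). *Trem2* (2.49), *Gpnmb* (2.24), *Spp1* (2.10), *Lgals3* (1.50), *Cd68* (1.30), *Adgre1* (0.91) and *Itgax* (0.88) were also higher in males. The *Cd9* call was lost in 8 of the 15 fits that left out 1 library. The sexes overlapped in all 10 genes, and 4.63% of all genes did not overlap.

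The sex difference was larger in VAT than in SAT for 7 genes (31.6% of all genes called). *Cd9* differed most, by 2.40 (SE 0.27, edgeR adjusted p = 5.15e-07), since it was higher in males in VAT and lower in SAT. *Spp1* (2.17), *Gpnmb* (2.03), *Itgax* (1.91), *Adgre1* (1.43), *Cd68* (1.40) and *Lgals3* (1.17) followed, and *Trem2* (0.85, SE 0.59), *Atp6v0d2* (1.07, SE 0.71) and *Cd163* (-0.60, SE 0.32) were not called. In WT libraries alone 1 gene was called (5.68% of all genes) and in KO libraries alone 2 (17.6% of all genes).

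**Figure D4:**
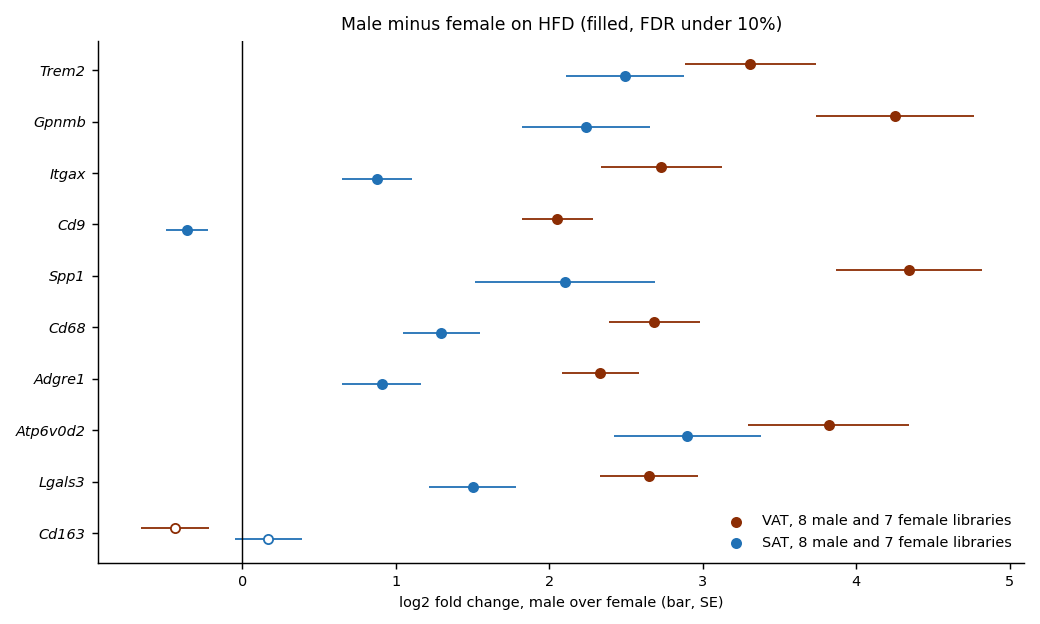
Log2 fold change of male over female on HFD for each gene, with the SE as a bar, in VAT and SAT (8 male and 7 female libraries per depot). Filled points have an FDR under 10%. VAT values run from -0.44 for *Cd163* to 4.35 for *Spp1*, and *Cd9* is positive in VAT and negative in SAT.

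Pan-macrophage genes differed between the sexes too. Of 16 genes, 15 were higher in males in VAT (median 1.65), and in SAT 11 were higher and 1 lower (median 0.55). The summed level was 715 to 1200 CPM in females and 1940 to 4100 in males in VAT, and 494 to 1040 and 703 to 1400 in SAT. With its score as a covariate, none of the 10 genes was called between the sexes in VAT, where 8 of all genes were. In SAT 3 were called (9.95% of all genes). The summed level and sex divided the VAT libraries in the same way, so the VAT fit cannot tell them apart. Mammary and skin epithelial genes were higher in female SAT, 6 of the 6 tested, at 110 to 269 CPM summed against 0.111 to 8.70 in males, with *Wap* at 0 in both. Adipocyte genes were lower in male VAT, 9 of 10, where 19.5% of all genes were called lower. Their part in the sex differences was not tested.

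Genotype gave no call among the 10 genes. In each depot, libraries of both sexes and both diets were fitted together, with diet and sex as covariates. In VAT, KO minus WT ranged from -0.16 for *Spp1* to 0.49 for *Itgax* on the log2 scale (SE 0.21 to 0.62), where 0.00527% of all genes were called, and none of the 10 had an unadjusted p under 0.05. DESeq2 called none of the 10 there either. In SAT 9 of the 10 values were above 0, with a median of 0.42 (-0.01 for all genes), and 4.33% of all genes were called.

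The largest SAT value was that of *Atp6v0d2*, at 1.13 (SE 0.48, edgeR adjusted p = 0.221). *Atp6v0d2*, *Lgals3* (0.60, SE 0.27) and *Gpnmb* (0.70, SE 0.33) had unadjusted p under 0.05 in edgeR. DESeq2 called none of the 10, and 11.1% of all genes it tested. In SAT of males on HFD, *Atp6v0d2* was at 24.7, 68.7, 12.9 and 37.8 CPM in KO and 14, 4.04, 10.1 and 15.1 in WT. The genotypes overlapped in that group, with 3 of 4 KO libraries above all WT libraries. Without the female KO library of replicate 2, which had 412 CPM of lymphocyte genes and the lowest *Adgre1* of the SAT libraries, *Atp6v0d2* and *Lgals3* were called (1.23 and 0.69, edgeR adjusted p = 0.0978 and 0.0977), just under the threshold, in a fit that called 14.9% of all genes.

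Of the lists, 6 of 17 vacuolar proton pump genes (median 0.20) and 4 of 21 other lipid-associated macrophage genes (median 0.29) were called higher in KO in SAT and none lower, where 3.45% of all genes were called higher. The pump genes had values of 0.19 to 0.35 on the log2 scale, and the 4 others, named here for having been called, were *Plin2*, which coats lipid droplets (0.64, SE 0.17), *Cstb* (0.53, SE 0.13), the fatty acid binding protein gene *Fabp5* (0.49, SE 0.13) and *Nr1h3*, the sterol receptor LXR alpha (0.38, SE 0.09). None of the 16 pan-macrophage, 10 resident macrophage or 25 lysosomal enzyme and membrane genes was called there, with medians of -0.01, -0.07 and 0.15. Of 17 recruitment and cytokine genes, *Il1b*, an inflammatory cytokine, fell by 1.24 (SE 0.34) and *Csf1*, a growth factor of macrophages, by 0.33 (SE 0.09). In this comparison 0.888% of all genes were called lower. Lymphocyte and skeletal muscle genes had medians of -1.21 and -4.37 in the same comparison, with no gene called. Adipocyte genes had a median of 0.31 there, with 1 of 10 called higher. The part of these cell types in it was not tested. In VAT and liver no tested gene of these macrophage, lysosome and cytokine lists was called.

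In liver no gene of the 10 was called and 0% of all genes were, with values from -0.33 for *Atp6v0d2* to 0.36 for *Gpnmb*, no unadjusted p under 0.05 and no call by DESeq2. Across the 32 male fat libraries the 10 values lay between -0.03 and 0.49, and none was called where 3.97% of all genes were. None had an unadjusted p under 0.05 in edgeR. DESeq2 called none of them, and 9.32% of all genes it tested. A missed threshold does not show that the genotypes were alike, and the SE of the 10 genes reached 0.62 in VAT and 0.52 in SAT.

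**Figure D5:**
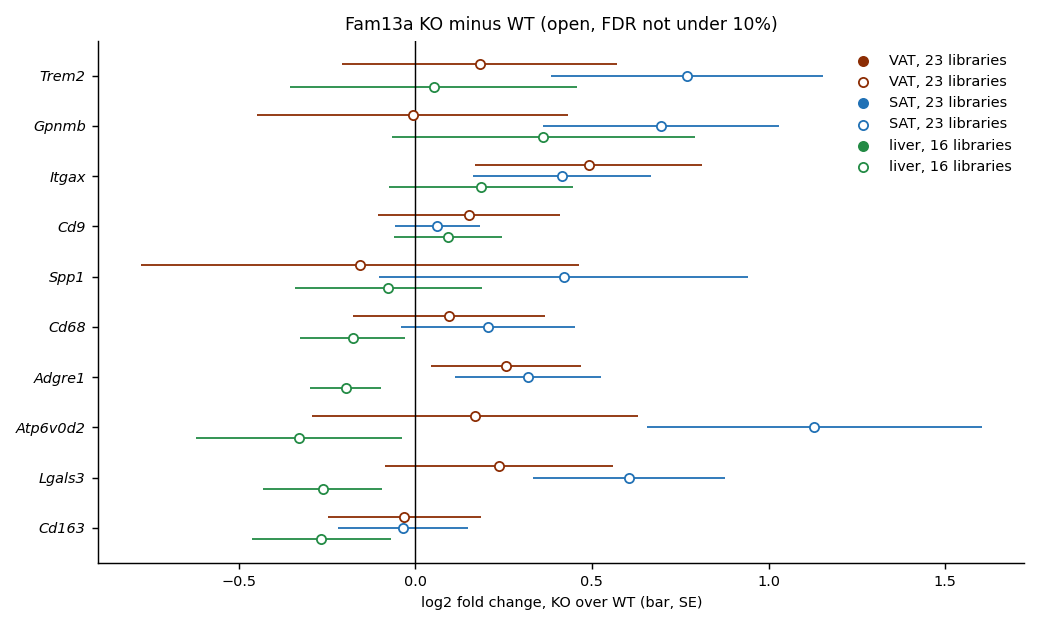
Log2 fold change of KO over WT for each gene, with the SE as a bar, in VAT (23 libraries), SAT (23) and liver (16). All points are open, since no FDR was under 10%, and the SAT values are above 0 for 9 of the 10 genes.

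The KO effect was also compared between the diets in males. In SAT all 10 genes had a more positive KO minus WT difference on HFD than on chow, with a median of 0.99 (-0.03 for all genes). None was called, where 0.0173% of all genes were. *Spp1* (3.15, SE 1.06, unadjusted p = 0.00957 in edgeR), *Cd68* (1.59, SE 0.48, unadjusted p = 0.00503) and *Gpnmb* (1.84, SE 0.71, unadjusted p = 0.0208) had adjusted p of 0.192, 0.173 and 0.224. DESeq2 called *Spp1* (adjusted p = 0.0583) and *Cd68* (adjusted p = 0.0423), among 957 genes or 6.94% of those it tested. These 2 genes were also called in edgeR when the chow KO library of replicate 4 was left out, which had 571 CPM of lymphocyte genes, but 5142 of all genes, or 29.2%, were called in that fit. SAT libraries over 200 CPM of lymphocyte genes were 4 of 4 WT and 1 of 4 KO on chow, and 1 of 4 WT and 0 of 4 KO on HFD. The pan-macrophage list and the list of TREM2 and integrin partners had medians of 0.75 and 0.74 in the same comparison. Adipocyte, lymphocyte and skeletal muscle genes had medians of -0.89, -0.61 and -10.28. No gene of these lists was called, and their part in it was not tested.

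In VAT the difference of the KO effects ranged from -0.79 for *Itgax* to 1.82 for *Spp1* (SE 1.52), with no call by edgeR or DESeq2 and no unadjusted p under 0.05 (0.00577% of all genes called). In liver it ranged from -0.41 for *Cd68* to 1.51 for *Gpnmb*, with no call (0% of all genes). *Cd9* (0.78, unadjusted p = 0.007) and *Atp6v0d2* (1.34, unadjusted p = 0.0219) were the 2 genes with an unadjusted p under 0.05 in edgeR, and DESeq2 called none.

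Across the 46 fat libraries, the 9 genes other than *Cd163* were positively correlated in every pair, to differing degrees. Spearman's rho of their log2 CPM with *Trem2* was 0.956 for *Lgals3*, 0.948 for *Atp6v0d2*, 0.943 for *Cd68*, 0.937 for *Adgre1*, 0.910 for *Gpnmb*, 0.838 for *Itgax*, 0.782 for *Spp1* and 0.498 for *Cd9*, against a median of -0.017 over all genes. These libraries share the depot, diet and sex differences given above. With the group means removed, rho with *Trem2* ranged from 0.465 for *Cd9* to 0.910 for *Gpnmb*. *Cd163* had a rho of -0.422 with *Trem2* over all fat libraries and 0.123 within groups.

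The 10 other genes most like *Trem2* in the fat libraries were Gm20056 (rho 0.963), *Il1rn* (0.959), *Tm4sf19* (0.952), *C3ar1* (0.950), *Lipa* (0.949), *Cd300lb* (0.945), *Creg1* (0.938), *Atf3* (0.937), *Pld3* (0.935) and *Vsig8* (0.934). *C3ar1* encodes a complement receptor, *Cd300lb* a receptor of myeloid cells, *Pld3* a lysosomal nuclease, and *Atf3* a stress-induced transcription factor. For *Cd163* the likeness was weaker, from 0.730 for *Lvrn* and 0.726 for *Ebf1* to 0.675 for *Heca*. *Abca6* (0.717), *Mrgprg* (0.716), *Cd209c* (0.709), *Armc8* (0.701), *Zfand6* (0.694), *Rps6kb1* (0.687) and *Dop1a* (0.684) lay between them. With the group means removed, rho with *Cd163* ranged from 0.173 for *Armc8* to 0.689 for *Abca6*, and that of the 10 genes with *Trem2* from 0.785 for *Vsig8* to 0.904 for *Tm4sf19*. Of the 10 genes like *Trem2*, *Lipa* and *Il1rn* were also in the gene lists above.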

How the data were processed

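RNA-seq reads of 62 libraries had been aligned by the authors to the mouse genome (mm10) with STAR (version 2.5.3a per the labels, while the study's methods name another release). The authors deposited raw counts per gene, made by STAR, and which strand was counted is not given in the sources used here. All columns were assigned to a sample (0 were not). Symbols came from GENCODE M21 for 48435 of 48795 genes.

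Groups were compared with edgeR 4.0.16 under R 4.3.3 (a TMM normalised quasi-likelihood fit, a filter on low counts, an FDR of 10%). The ribosomal RNA gene stayed in the counts, also in TPM, and was left out in an alternative. DESeq2 1.42.0 was an alternative. A log2 CPM used a prior count of 2, and TPM used merged exon lengths. The fits were tested on simulated data. HFD was compared with chow within each tissue, males with females on HFD, and KO with WT, and differences between tissues or diets were tested as interaction terms. Diet, sex and tissue comparisons held both genotypes, with genotype as a covariate. KO fits pooled the diets, and in each depot also the sexes, with diet and sex as covariates. The KO fit of male fat pooled diets and depots, with both as covariates. Alternatives were another normalisation, filters, an FDR of 5%, each genotype alone, list scores as covariates, and leaving out each library. No 2 libraries held identical counts.

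The 10 genes and 21 gene lists were chosen with earlier results of these data known. All 10 genes are named in each comparison, with the 4 called genes of smallest p for HFD in VAT per list (lists of other cell types are given by their counts, and 1 gene that the rule names is not reported here), and the 10 genes most like *Trem2* and *Cd163*. *Lyve1*, *Atp6v0d1*, *Pparg*, *Fabp4* and *Apoe* were named after their values were seen. So were *Plin2*, *Fabp5*, *Nr1h3*, *Il1b* and *Csf1*, which were named for being called for KO in SAT.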

Additional observations from a re-analysis of the deposited data

Results flagged for a closer look

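Among 140 sets of 4 libraries of 1 gene, 4 held a library far from the other 3, where chance gives about 1 in 20, or 7. *Trem2* was at 0.435 CPM in replicate 4 of male HFD liver WT (1.18 to 1.35 in the others), on 7 counts. *Atp6v0d2* was at 15.2 CPM in replicate 2 of male chow SAT KO (1.18 to 1.50 in the others). *Lgals3* was at 1.21 CPM in replicate 1 of male chow liver KO (4.31 to 4.97 in the others), on 3 counts. *Cd163* was at 28.9 CPM in replicate 2 of female HFD SAT KO (61.5 to 64.0 in the others), the library with 412 CPM of lymphocyte genes.

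The HFD effect differed between VAT and SAT by the interaction test of edgeR for *Trem2* (1.96), *Gpnmb* (2.98), *Itgax* (3.28), *Cd9* (0.99), *Cd68* (2.04), *Adgre1* (2.28) and *Lgals3* (1.46), as log2 differences. Between VAT and liver it differed for *Trem2* (3.62), *Gpnmb* (3.00), *Itgax* (3.70), *Cd9* (2.65), *Spp1* (2.80), *Cd68* (2.79), *Adgre1* (3.22), *Atp6v0d2* (2.80) and *Lgals3* (3.10). Between SAT and liver it differed for *Trem2* (1.63), *Cd9* (1.60), *Adgre1* (0.89) and *Lgals3* (1.64).

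The difference of males from females on HFD was larger in VAT than in SAT for *Gpnmb* (2.03), *Itgax* (1.91), *Cd9* (2.40), *Spp1* (2.17), *Cd68* (1.40), *Adgre1* (1.43) and *Lgals3* (1.17).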

How the results depend on the processing

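Lane cannot be told apart from diet or from sex, and neither can cell number and RNA per cell. No paired analysis was possible because the labels do not link the tissues or groups of 1 mouse. Counts of the 10 genes called by edgeR at an FDR of 10% are given here beside those that moved by over 1.5 times, and their causes were not tested. The share of all genes called in the changed fit follows in the brackets. With the pan-macrophage score as a covariate, 0 (in place of 10, 0% of all genes) were called for HFD in VAT. In liver 3 (5, 37.2%) were. Between the sexes 0 (9, 0.0456%) were called in VAT and 3 (9, 9.95%) in SAT. In VAT the summed level of this list divided the libraries in the same way as diet and as sex. With the lymphocyte score, 5 (9, 26.2%) were called for HFD in SAT. An FDR of 5% left 5 (9, 49.6%) in SAT, 3 (5, 33.3%) in liver and 1 (4, 30.9%) between depots on chow. WT libraries alone gave 4 (9, 58.8%) in SAT, 2 (5, 30.6%) in liver and 2 (4, 36.5%) for SAT against liver. They gave 1 (4, 41.7%) between depots on chow and 1 (7, 5.68%) for sex by depot. KO libraries alone gave 3 (5, 20.6%) in liver and 2 (7, 4.9%) for the HFD effect between depots. They gave 0 (4, 8.91%) between depots on chow and 2 (7, 17.6%) for sex by depot. At least 10 counts in every library left 2 (5, 57.0%) in liver, since low genes were removed. It left 1 (9, 49.5%) for VAT against liver and 1 (4, 54.9%) for SAT against liver. No filter gave 2 (4, 22.1%) between depots on chow. Leaving out the SAT libraries over 200 CPM of lymphocyte genes was chosen after seeing the data. So was leaving out the 2 VAT libraries with epididymis genes. Without those SAT libraries, 3 (7, 6.99%) were called for the HFD effect between depots and 0 (4, 5.52%) between depots on chow. DESeq2 called 2 (0, 6.94%) for the KO effect between diets in SAT.

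Signs turned with the pan-macrophage score for HFD in VAT in *Trem2* (-0.23), *Gpnmb* (-0.32), *Cd9* (-0.38), *Spp1* (-2.31), *Cd68* (-0.65), *Atp6v0d2* (-0.19) and *Lgals3* (-0.59), and between the sexes in VAT in *Trem2* (-0.091), *Itgax* (-0.54), *Atp6v0d2* (-0.056) and *Lgals3* (-0.032). None of these was called. *Cd68* in SAT was at -0.14 in WT alone, and *Spp1* in liver was called at 0.40 without replicate 4 of male chow liver WT, which had 79.4 CPM, with values from -0.15 over the libraries left out in turn.

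Leaving out 1 library at a time gave 10 to 10 calls for HFD in VAT, 6 to 9 in SAT, 3 to 6 in liver, 6 to 8 for VAT against SAT, 9 to 9 for VAT against liver and 3 to 6 for SAT against liver. It gave 1 to 5 between depots on chow, 10 to 10 on HFD, 9 to 10 between the sexes in VAT, 8 to 9 in SAT and 7 to 9 for sex by depot. KO against WT gave 0 to 2 in SAT and so did the KO effect between diets in SAT, with 0 to 0 in the other genotype comparisons. The liver count fell to 3 without male chow KO replicate 3, chow WT replicate 2, HFD KO replicate 1 or 2, or HFD WT replicate 3 or 4. The chow depot count fell to 2 without SAT KO replicate 1, and to 1 without SAT KO replicate 3 or 4, SAT WT replicate 1 or VAT WT replicate 4.

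Over all genes, the alternatives gave 0 to 8000 calls for HFD in VAT (7653 as reported), 2606 to 10439 in SAT (10036), 2718 to 6173 in liver (5912), 8 to 7666 between the sexes in VAT (6925), 1620 to 5935 in SAT (4707), 0 to 101 for KO in VAT (1) and 241 to 2487 in SAT (796). Leaving out 1 library gave 328 to 2723 for KO in SAT and 0 to 5142 for the KO effect between diets in SAT (3 as reported).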
